A study of Fragaria vesca with 3 samples.

Results

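The subject here is the intergenic DNA, more than 2 kb in front of gene starts, that the strawberry transcription factor FvSEP3 bound in vitro. The peaks were chosen by position alone. From the authors' merged peak list, every entry was taken that the authors had annotated as distal intergenic, that carried a negative distance to the start of its assigned gene, and that lay on 1 of the 7 chromosomes. The rule found 1377 distal upstream peaks, assigned to 1190 genes, among 13283 entries in all and 13191 on the chromosomes. Fold enrichment and gene function played no part in the choice. Under the same rule the list of IP replicate 1 held 2017 peaks of 19298, and the list of IP replicate 2 held 2313 of 21823.

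The data came from DNA affinity purification sequencing (DAP-seq) in woodland strawberry, Fragaria vesca. Both IP replicates and the input library used genomic DNA from nuclei of wild-type fruit, taken 30 days post anthesis. The labels call the 2 IP samples independent biological replicates, and they name no mutant, treatment or other stage. A peak list was used for each IP replicate, and the 1 input library served as the negative control and had no list of its own in what was analysed here. There was thus no pair of conditions to compare, peaks of 1 library are not replicates, and no p-value is given for any difference below. The files hold no read counts, so the depth of the libraries is unknown and the peak caller's −log10 q-values stand in for precision. Coordinates are those of the deposited lists, for which no genome build could be named from the labels or file headers.

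SEPALLATA3 (SEP3) belongs to the MADS-domain family of plant transcription factors. In Arabidopsis it is known as the partner that joins other MADS-domain proteins into complexes that specify floral organs, and related SEPALLATA-like genes act in the ripening of fleshy fruit. MADS-domain proteins bind DNA motifs known as CArG boxes, and their tetramers can bridge separate sites on a DNA molecule. DAP-seq offers a tagged protein purified genomic DNA without chromatin, so a peak shows binding to the DNA itself and says nothing of whether the site is open in the fruit. A peak's assignment to a gene is the authors' annotation and shows neither contact with nor control of that gene.

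The distal upstream peaks crowded towards the nearer end of their range. The median distance to the assigned gene start was 3915 bp, with quartiles at 2773 and 6270 bp, the nearest peak at 2006 bp and the farthest at 26492 bp. In the bin from 2 to 5 kb lay 902 peaks, or 65.5% (95% Wilson interval 63.0 to 68.0). The bin from 5 to 10 kb held 360 peaks (26.1%, 23.9 to 28.5), and 115 peaks (8.35%, 7.0 to 9.93) lay over 10 kb away. Such intervals cover counting error only. The first kilobase past the promoter edge alone held 437 peaks (31.7%). Only 13 peaks lay beyond 20 kb.

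**Figure D1:**
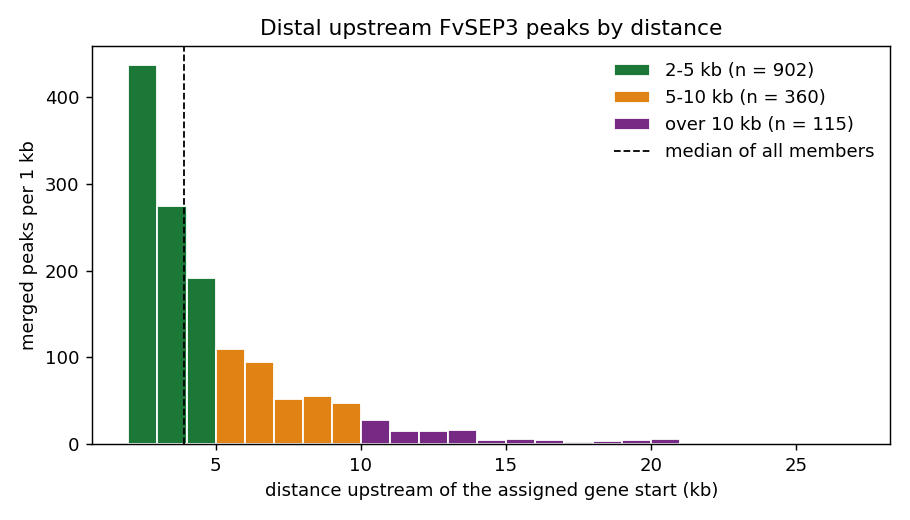
Number of distal upstream peaks of the merged list (vertical axis, per 1 kb) against distance upstream of the assigned gene start in kb (horizontal axis), coloured by distance bin, with the median dashed. The tallest bar holds 437 peaks between 2 and 3 kb, and 115 peaks form a thin tail beyond 10 kb.

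Both replicates gave nearly the same distribution of distances. The bin from 2 to 5 kb held 65.1% of the distal upstream peaks of replicate 1 and 64.7% of those of replicate 2, a mean of 64.9% ± 0.331 (SD, n = 2). The 5 to 10 kb bin averaged 26.4% ± 0.0634 (SD, n = 2) and the bin over 10 kb 8.72% ± 0.268 (SD, n = 2). Median distances were 3874 bp for replicate 1 and 3950 bp for replicate 2. The single lists reached farther than the merged list, to 40644 bp for replicate 1 and to 57561 bp for replicate 2, with 25 peaks past 20 kb in each.

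The lower edge of the range was set by the authors' annotation, which calls the first 2 kb promoter. The nearest peaks inside were at FvH4_7g16790, described as a ubiquitin-like domain-containing CTD phosphatase, at 2006 bp, and at FvH4_6g26820, which has no description, at 2007 bp. Their fold enrichments were 2.96 and 3.21, and 2.62 and 2.89, in replicates 1 and 2. The first entries outside, still promoter, were at FvH4_7g01110 (protein FRA10AC1, 1998 bp, 3.98 and 2.52) and at FvH4_3g06690 (shikimate O-hydroxycinnamoyltransferase-like, 1997 bp, 2.47 and 2.56). The values on either side of the edge overlapped.

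Fold enrichment, the authors' ratio of signal to background for each peak, hardly depended on distance. Over all distal upstream peaks its median was 3.15 (quartiles 2.84 and 3.52), against 3.12 over all entries on the chromosomes. By bin the median was 3.13 from 2 to 5 kb, 3.21 from 5 to 10 kb and 3.16 over 10 kb. The peaks of the merged list had medians of 3.15, 3.16 and 3.11 over these bins with their replicate 1 values, and of 3.12, 3.22 and 3.19 with their replicate 2 values. Thus the bins lay closer together than the quartiles of any of them, and replicate 1 did not put them in the order of replicate 2. Across the 1377 peaks, Spearman's rho between distance and mean fold was 0.042. With the replicate 1 fold of these peaks it was 0.0057, and with their replicate 2 fold 0.062. Those coefficients describe peaks that share libraries and input.

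The classes nearest in position had much the same strength. Distal intergenic entries on the downstream side had a median fold of 3.12 (n = 1423), promoter entries from 1 to 2 kb 3.13 (n = 943) and promoter entries within 1 kb 3.13 (n = 1711). A fold of at least 4 was reached by 91 distal upstream peaks (6.61%), against 5.72% of all entries on the chromosomes, so the share was close to the background. It was 6.89% of the distal downstream entries, 4.77% of promoter entries from 1 to 2 kb and 4.56% of those within 1 kb. Within the distal upstream peaks this share was 5.54% from 2 to 5 kb, 8.61% from 5 to 10 kb and 8.70% over 10 kb. In the single lists those shares were 6.77%, 8.29% and 12.8% in replicate 1, where 6.74% of all peaks reached 4, and 5.48%, 10.6% and 7.77% in replicate 2, where it was 5.95%. Both replicates thus had the lowest share of strong peaks in the nearest bin and put different bins highest, and the differences were not tested.

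**Figure D2:**
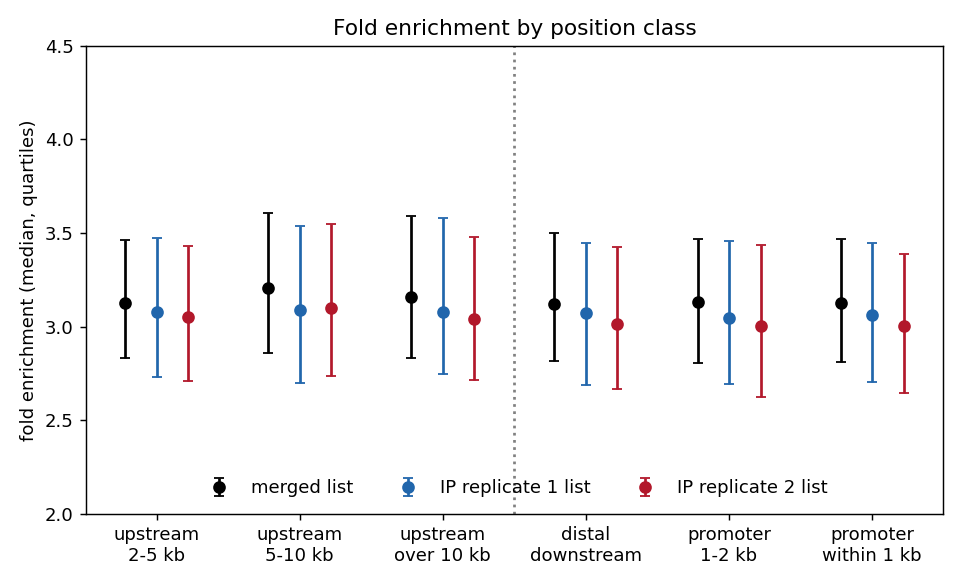
Median fold enrichment (points) with quartiles (bars) for the 3 distance bins of distal upstream peaks, left of the dotted line, and for distal downstream and promoter entries, right of it, in the merged list and both IP replicate lists. All medians lie near 3 and the quartile ranges overlap throughout.

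Among the 50 entries of highest mean fold on the chromosomes, 9 were distal upstream (18%), 11 distal downstream and 4 promoter, while distal upstream peaks make up 10.4% of the whole list. Among the 1000 highest, 125 (12.5%) were distal upstream. The distal upstream peaks were of ordinary length, with a median of 376 bp against 394 bp over all entries and 378 bp on the downstream side.

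The strongest site, on chromosome 4 from 5063912 to 5064238, lay 2906 bp upstream of FvH4_4g05702, an uncharacterized gene. Its fold was 6.73 in replicate 1, and replicate 2 gave 6.56. Next came a site 4065 bp upstream of FvH4_4g02081, without description, on chromosome 4 from 1866711 to 1866981, with 5.18 and 7.11. That site was far stronger in replicate 2, where it was the highest peak on any chromosome. The third stood 19398 bp in front of the uncharacterized FvH4_1g29461, on chromosome 1 from 22579852 to 22580112, with 4.98 and 5.66. High fold enrichment was therefore not confined to the near bin.

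Of the 10 strongest, 8 were assigned to uncharacterized genes or genes without description. Distal upstream peaks at or above the list's median fold did not share this. Of them, 44.6% had such genes, against 38.4% of all entries at that limit. Without the limit it was 44.8% of distal upstream peaks and 37.4% of all entries. The other 2 of the 10 strongest were FvH4_1g24390 and FvH4_2g11380. FvH4_1g24390 is described as sm-like protein LSM5, a family that forms rings on RNA in splicing and RNA decay, and its peak at 2135 bp had 4.44 and 5.31. FvH4_2g11380 is described as UBP1-associated protein 2A, an RNA-binding protein, and its peak at 2260 bp had 4.71 and 4.85. In the middle bin the leading peaks were at the uncharacterized FvH4_4g04920 (6686 bp, 5.15 and 4.20) and at FvH4_1g27870, described as methyl-CpG-binding domain protein 4 (8590 bp, 4.63 and 4.55). Proteins of that name are known in animals and plants as DNA repair glycosylases.

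Over 10 kb away, 3 further peaks followed the site at FvH4_1g29461 and a peak 10476 bp upstream of the uncharacterized FvH4_6g24340, which had 5.37 and 4.57. They stood at the uncharacterized FvH4_4g08970 (10050 bp, 4.57 and 4.33), at FvH4_7g18860, a probable protein S-acyltransferase that attaches fatty acids to proteins (12190 bp, 4.70 and 4.13), and at FvH4_2g05810, the transcription factor bHLH95. The bHLH95 site lay 11298 bp upstream, on chromosome 2 from 4757281 to 4758184, with 4.37 and 4.33. FvH4_2g05810 also had an entry inside the gene with a mean fold of 3.05 and one on its downstream side with 3.15.

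Each merged interval was the union of the replicate peaks it cites, 1 from each replicate, so merged entries overlap in both by construction. For 1 of the 1377 the cited peak names are not in the replicate lists. Taken from the single lists, 69.0% of the 2017 distal upstream peaks of replicate 1 (95% Wilson interval 67.0 to 71.0) touched a peak of replicate 2 by 1 bp or more, against 70.4% of all replicate 1 peaks on the chromosomes. In the other direction it was 60.0% of 2313 (58.0 to 61.9), against 61.9% of all replicate 2 peaks. These shares were close to the background. By bin they were 69.6%, 68.4% and 66.9% in replicate 1, and 60.8%, 59.4% and 55.3% in replicate 2. Sharing was thus lowest over 10 kb in both lists, with wide intervals of 59.5 to 73.5 and 48.5 to 62.0.

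Within the merged list, the replicate peaks behind a distal upstream entry mostly lay on top of each other. At least 50% of both peaks overlapped in 1261 of the 1377 (91.6%), and the midpoints were within 100 bp in 1204 (87.4%). Both replicate lists placed 1329 of them in the same distal upstream class, and 1349 at the same gene. In replicate 1 list annotation, 22 of the others counted as promoter from 1 to 2 kb, and in replicate 2 it was 24. They included the peaks at FvH4_1g13230 (2029 bp) and FvH4_1g25210 (2127 bp) in both lists. Those at FvH4_7g16790 and FvH4_6g26820 were among them in replicate 1, and that at FvH4_2g11380 in replicate 2. The peak at FvH4_3g08970 was classed as downstream in replicate 1. Fold enrichment was higher in replicate 1 for 672 peaks and higher in replicate 2 for 705. For 1009 peaks (73.3%) the values were within 20% of each other, and for 21 they differed by over 1.5 times. Spearman's rho between the replicate folds was 0.546 across the distal upstream peaks and 0.530 across all entries, values that include only peaks found in both replicates.

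**Figure D3:**
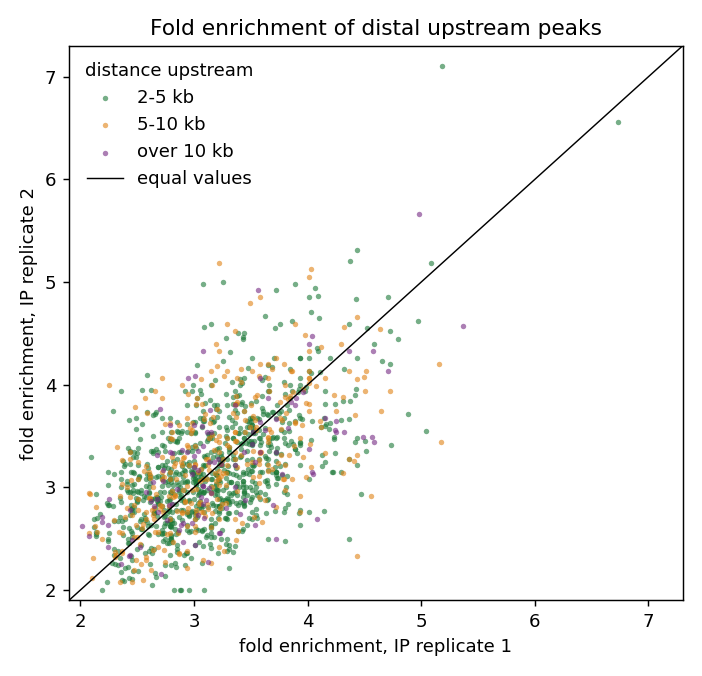
Fold enrichment of the 1377 distal upstream peaks in IP replicate 1 (horizontal) and IP replicate 2 (vertical), coloured by distance bin, with a line of equal values. The bins lie over one another, and the point far above the line at the top is the site 4065 bp upstream of FvH4_4g02081, at 5.18 and 7.11.

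The most unequal pairs, chosen after their values were seen, were at FvH4_5g28310, a probable serine/threonine-protein kinase (4.44 in replicate 1 and 2.33 in replicate 2), at FvH4_3g20770, a PAP-specific phosphatase HAL2-like gene (2.25 and 4.0), and at FvH4_6g25790, protein S-acyltransferase 10 (4.37 and 2.49). All 3 belong to the 21 that differed by over 1.5 times.

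Distal upstream peaks were spread unevenly over the chromosomes. They made up 14.0% of the merged entries on chromosome 4 (274 peaks, 95% Wilson interval 12.5 to 15.6) and 8.54% on chromosome 2 (151 peaks, 7.32 to 9.93), with 8.999% to 11.8% on the others. In the replicate 1 list the share was 13.5% on chromosome 4 and 8.76% on chromosome 2, and in replicate 2 it was 14.3% and 8.64%. Chromosome 4 was thus highest and chromosome 2 lowest in each replicate. Chromosome 4 also held 39 of the 115 peaks over 10 kb, and its median distance was 4866.5 bp, against 3426 to 3917.5 bp on the other chromosomes.

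Much of the difference lay in a single stretch of chromosome 4. The chromosomes were divided into windows of 2 Mb, of which 110 held at least 50 merged entries. The share of distal upstream peaks had a median of 9.33% over these windows, with quartiles at 6.61% and 14.1%. The highest share was 35.7%, in the chromosome 4 window from 10 to 12 Mb (35 of 98 entries), and the next was 30.8%, in the adjoining window from 8 to 10 Mb (33 of 107). In replicate 1 these windows had 32.4% and 28.8%, and in replicate 2 they had 28.2% and 31.3%. They held the first and second places in either list. The following windows were at 24.3% on chromosome 1 (22 to 24 Mb) and 23.9% on chromosome 3 (26 to 28 Mb). The windows were set up after the chromosome shares had been seen, and the highest of many windows is by construction extreme in the merged list, so the replicate values stand beside it without a test.

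**Figure D4:**
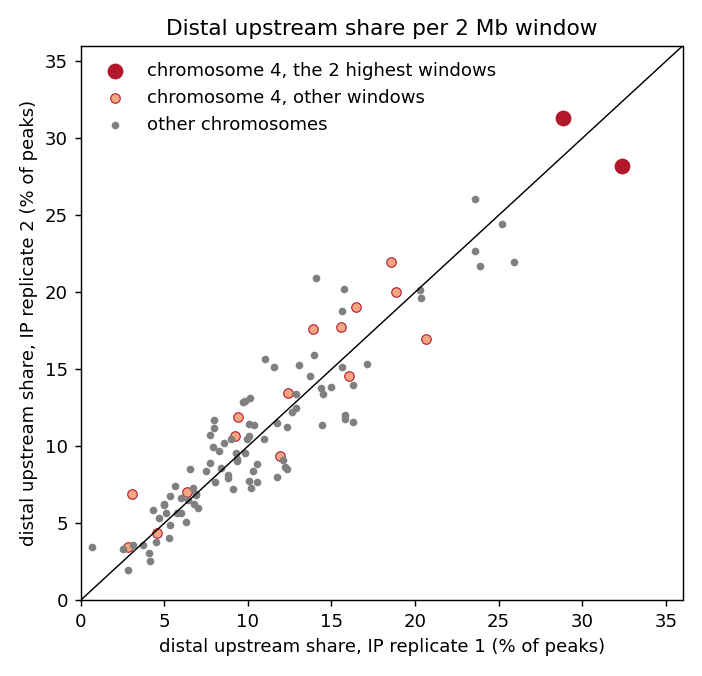
Share of peaks that were distal upstream in each of 110 windows of 2 Mb, in IP replicate 1 (horizontal, %) and IP replicate 2 (vertical, %), with a line of equal values. The 2 adjoining chromosome 4 windows (large red points) lie at 28.2% to 32.4%, above every other window in both replicates.

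The stretch from 8 to 12 Mb held 68 distal upstream peaks at 43 genes, with a median distance of 7125.5 bp, and 19 of them lay over 10 kb from the gene start. Their median fold was 3.07, so the sites were no stronger than elsewhere. For 48 of the 68, the assigned gene had no description or was called uncharacterized. A median of 5 genes with any peak lay within 50 kb of those sites, against 8 around distal upstream peaks as a whole and 9 around all entries. Outside the stretch, the share on chromosome 4 was 11.8% (206 of 1751, 10.3 to 13.4), which is near that of chromosome 3 at 11.8% and chromosome 1 at 10.7%. The count covers only genes with a peak, so it is not gene density. The part of this low count in the high share was not tested.

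Several genes had a row of peaks in front of them. Of the 1190 genes, 1047 had 1 distal upstream peak, 110 had 2 and 33 had 3 or more. The most, 6, belonged to FvH4_4g21073, described as zinc finger BED domain-containing protein RICESLEEPER 3-like, a family derived from hAT transposases. Its peaks ran from 3301 to 9923 bp upstream, with mean folds of 2.51 to 3.43. FvH4_4g08630, described as protein ROOT PRIMORDIUM DEFECTIVE 1, had 5 peaks from 7201 to 26056 bp, which span 19622 bp in the stretch of chromosome 4 described above. Its nearest peak had the highest mean fold, with 4.01 in replicate 1 and 4.13 in replicate 2. The peak at 11214 bp was higher in replicate 1, at 4.24, and lower in replicate 2, at 3.55. The farthest peak had 3.15 and 2.94.

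A further 6 genes had 4 peaks each. They were FvH4_1g25210 (phospholipase A1-IIgamma-like, 2127 to 6199 bp), the uncharacterized FvH4_6g24340 (4057 to 12143 bp), and FvH4_3g31813, FvH4_4g05013, FvH4_4g08831 and FvH4_4g09361, which have no description. FvH4_3g31813 held the farthest peak of all, at 26492 bp, with 4.25 and 3.54, and 2 more peaks beyond 20 kb. The other farthest sites were at FvH4_4g08630 (26056 bp), FvH4_4g10000 (24153 bp, 3.51 and 3.42), FvH4_4g09792 (23340 bp, 2.80 and 2.84) and FvH4_6g37920, a GDSL esterase/lipase gene (22633 bp, 3.01 and 4.09). These far peaks were not weaker than the median by any common margin, since their values lay on both sides of 3.15.

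Most genes with a distal upstream peak had nothing nearer in the merged list. A promoter entry was listed for 138 of the 1190 genes (11.6%, 95% Wilson interval 9.90 to 13.5), and an exon, intron or UTR entry for 269 (22.6%). Either kind was present for 380 genes (31.9%), and 759 genes (63.8%) had distal upstream entries alone. The promoter share depended on the list, with 17.1% in the replicate 1 list, 18.0095% in the replicate 2 list and 6.06% among merged entries at or above the median fold. Over all genes with an entry the shares were 24.1% for promoters, 64.0% for gene bodies and 83.1% for either, which include genes counted for those entries alone. Among the 1251 genes with a distal downstream entry the shares were 9.51% for promoters, 15.9% for gene bodies and 24.0% for either. Genes with a nearer entry as well included FvH4_1g13230 (GATA transcription factor 18-like), with a mean fold of 4.07 at 2029 bp and 3.91 at 34 bp upstream. FvH4_5g14560, the clock regulator APRR1, had an entry 9 bp past its start with a mean fold of 3.79.

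The functions of the assigned genes were read from their descriptions, with 30 lists of words. No description or only the word uncharacterized stood beside 617 of the 1377 distal upstream peaks (44.8%, 95% Wilson interval 42.2 to 47.4), against 37.4% of all entries on the chromosomes. The share was 46.2% in replicate 1 and 44.7% in replicate 2, against 37.5% and 37.3% of all peaks there. It was higher still among distal downstream entries, at 52.1%, and 39.1% among promoter entries. By bin it was 43.3% from 2 to 5 kb, 47.2% from 5 to 10 kb and 48.7% over 10 kb. The share was thus above the background on both sides of genes and in all bins, and the differences were not tested.

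Genes described as transcription regulators of 10 families were assigned to 71 distal upstream peaks (5.16%, 95% Wilson interval 4.11 to 6.45), against 3.86% of all entries. In the replicate 1 list the shares were 4.96% of distal upstream peaks and 3.75% of all peaks, and in replicate 2 they were 5.53% and 3.88%. Counted once per gene, regulators were 5.29% of 1190 genes with a distal upstream peak and 3.65% of all 10646 genes with an entry. Distal downstream entries had 4.29% and promoter entries 3.92%. The higher share was therefore present in both replicates, and the difference was not tested. Regulators were 5.54% of the peaks from 2 to 5 kb, 5.28% from 5 to 10 kb and 1.74% (2 of 115) over 10 kb.

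Genes of the MADS-box family, to which FvSEP3 belongs, had 2 distal upstream peaks (0.145%, 95% Wilson interval 0.0398 to 0.528) against 0.25% of all entries, a background inside that interval. The shares were 0.149% against 0.240% in replicate 1 and 0.173% against 0.226% in replicate 2. FvH4_1g12260, described as floral homeotic protein DEFICIENS-like, had a site 4621 bp upstream on chromosome 1 from 6719946 to 6720743, with 3.47 in replicate 1 and 3.59 in replicate 2. DEFICIENS is the snapdragon gene for petal and stamen identity, whose product works with SEPALLATA proteins in flowers. FvH4_2g02270, described as agamous-like MADS-box protein AGL62, a gene known from Arabidopsis endosperm, had a site 2177 bp upstream with 3.02 and 3.03. The DEFICIENS-like site had a mean fold just above the upper quartile of distal upstream peaks, and the AGL62 site lay below their median. Both were nearly equal between the replicates, and neither gene had another entry in the merged list.

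Homeobox genes, many of which act in meristems, had 7 peaks (0.508%) against 0.273% of all entries, but among entries at or above the list's median fold the share was 0.278% against 0.272%. FvH4_3g01400, described as homeobox protein SBH1, a KNOTTED-like gene, had the strongest, at 2807 bp with 4.43 and 3.96, and a second at 6971 bp with 3.39 and 2.58. FvH4_1g11910, described as protein WUSCHEL, which keeps the stem cells of the shoot apex, had 3.25 and 4.23 at 4100 bp. FvH4_4g32650 (WUSCHEL-related homeobox 2-like) had 2.83 and 3.33 at 2970 bp. The order of those genes by strength changed with the replicate.

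MYB-type genes had 12 peaks at 8 genes (0.871%) against 0.44% of all entries, and 3 of them belonged to FvH4_4g02400, a transcription repressor MYB6-like gene. Those stood at 8146, 9667 and 14656 bp, with 2.32, 3.84 and 3.86 in replicate 1 and 3.40, 3.89 and 3.83 in replicate 2. The 2 farther sites were alike in both replicates, while the nearest was weak in replicate 1. FvH4_3g14050, described as APL, a regulator of phloem identity, had 3.44 and 3.54 at 4417 bp. Basic helix-loop-helix genes had 4 peaks (0.290%) against 0.371% of all entries, and 0.417% against 0.393% at or above the median fold. Beside bHLH95 these included FvH4_5g23290, described as MYC2, a regulator of jasmonate responses, with 4.72 and 3.94 at 8135 bp, and FvH4_7g00670 (bHLH130-like), with 3.53 and 3.45 at 4078 bp.

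The largest regulator list, of B3, trihelix, YABBY, heat stress factor and like genes, had 22 peaks (1.60%, 95% Wilson interval 1.06 to 2.41) against 0.872% of all entries. In replicate 1 the shares were 1.39% and 0.813%, and in replicate 2 they were 1.25% and 0.838%. Its highest members were FvH4_7g12260 (a B3 domain gene, 3.66 and 3.94 at 3025 bp), FvH4_2g34260 (heat stress transcription factor B-4, 3.75 and 3.72 at 3023 bp) and FvH4_6g17990 (trihelix transcription factor PTL, 3.80 and 3.43 at 2569 bp). In Arabidopsis, PETAL LOSS (PTL) limits growth between sepals and is needed for petals. FvH4_7g12260 and FvH4_6g17990 each had a second distal upstream peak, at 7756 and 4338 bp.

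Zinc finger genes of the DOF, GATA, WIP and C2H2 kinds had 10 peaks (0.726%) against 0.5% of all entries. With the fold limit at the list's median the share was 1.25% against 0.604%. They were led by FvH4_3g08900 (DOF3.1-like, 3.22 and 5.18 at 5058 bp), the GATA gene named above (4.73 and 3.42) and FvH4_6g23170 (WIP2-like, 4.42 and 3.71 at 8707 bp). The DOF site was far stronger in replicate 2, and the other 2 were stronger in replicate 1. Both replicate lists class the GATA site as promoter. AP2 and ERF genes had 4 peaks (0.290%) against 0.379% in the merged list, but the single lists gave the opposite direction, with 0.595% against 0.381% in replicate 1 and 0.692% against 0.447% in replicate 2. Among the merged sites was that of FvH4_5g27942, described as floral homeotic protein APETALA 2-like, with 2.79 and 3.48 at 8391 bp upstream. GRAS, TCP and SBP genes had 5 (0.363% against 0.402%), with 0.248% against 0.339% in replicate 1 and the opposite direction in replicate 2, at 0.562% against 0.392%. NAC genes had 3 (0.218% against 0.25%) and WRKY genes 2 (0.145% against 0.152%). Both of these lists were slightly above the background in replicate 1 (0.248% against 0.245% and 0.198% against 0.188%) and below it in replicate 2 (0.173% against 0.272% and 0.130% against 0.157%). For these 4 families the lists gave no settled direction. The WRKY pair, FvH4_5g39060 (WRKY65) and FvH4_7g10440 (WRKY12), was stronger in replicate 1, at 4.23 and 4.13, than in replicate 2, at 3.49 and 3.31.

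Flowering and clock genes had 11 peaks at 10 genes (0.799%, 95% Wilson interval 0.447 to 1.42) against 0.379% of all entries. In the single lists the shares were 0.595% against 0.339% in replicate 1 and 0.562% against 0.341% in replicate 2. The leading site was at FvH4_5g14560, described as APRR1, which in Arabidopsis is the evening clock gene TOC1. It lay 7117 bp upstream on chromosome 5 from 8260049 to 8260284, with 4.51 and 4.13, and a weaker one at 5132 bp had 2.82 and 2.47. FvH4_6g51361 (FRIGIDA-like protein 5) had 3.93 and 3.96 at 2462 bp, and FvH4_5g25490 (flowering time control protein FY-like) had 3.84 and 4.0 at 2901 bp. Others, named after their values were seen, were FvH4_4g07890 (adagio protein 1, the blue light receptor of the clock, 3.89 and 3.64 at 5576 bp) and FvH4_6g00090 (flowering locus T1, 2.47 and 3.35 at 2503 bp).

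Among hormone genes, auxin genes had 11 peaks at 10 genes (0.799%) against 0.387%. The shares were 0.793% against 0.412% in replicate 1 and 0.692% against 0.396% in replicate 2. FvH4_5g24720, an auxin-induced protein 15A-like gene of the SAUR family, had the strongest site, at 2373 bp with 4.20 and 4.26, and another at 5894 bp with 3.06 and 3.18. FvH4_6g32450 (IAA26-like, a repressor of auxin responses) had 3.72 and 3.15 at 4962 bp, and FvH4_5g38640 (auxin response factor 17) had 3.14 and 3.63 at 6426 bp. Genes of gibberellin, cytokinin and brassinosteroids had 7 peaks (0.508% against 0.28%). FvH4_2g23440 and FvH4_2g22720, each described as ent-copalyl diphosphate synthase, the first committed enzyme of gibberellin synthesis, had 4.01 and 4.85 at 4913 bp and 3.58 and 3.34 at 6287 bp. FvH4_6g04960, a gibberellin receptor GID1C-like gene, had 3.65 and 3.70 at 2820 bp.

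Abscisic acid is the hormone best known for strawberry ripening. Its genes, with those of 2C phosphatases, which include its co-receptors, had 5 peaks (0.363%) against 0.402% of all entries. FvH4_4g09440, a PYL8-like abscisic acid receptor, had 3.68 and 4.15 at 5508 bp, in the same stretch of chromosome 4. Its −log10 q-values, 43.1 and 63.9, were high for this fold, against a median of 10.5 over distal upstream peaks. The cause was not tested. FvH4_5g20490, a SAPK2-like kinase of the abscisic acid pathway, had 3.03 and 3.87 at 2754 bp, and FvH4_2g14100, an abscisic acid 8'-hydroxylase that breaks the hormone down, had 3.07 and 2.80 at 3486 bp. FvH4_3g16730, a 9-cis-epoxycarotenoid dioxygenase NCED3-like gene for the key step of abscisic acid synthesis, was named after its values were seen, with 2.90 and 2.78 at 4003 bp. Its merged entry cites replicate peak names that the replicate lists do not hold. The replicate 1 list has an overlapping peak from 10560259 to 10560676 and the replicate 2 list has none, so its support in replicate 2 could not be traced. Ethylene genes had 2 peaks (0.145% against 0.167%), with 0.198% against 0.162% in replicate 1 and 0.0865% against 0.175% in replicate 2. They stood at FvH4_2g15800 (the kinase CTR1, which holds ethylene signalling off, 3.29 and 4.13 at 7429 bp) and FvH4_2g26120 (ethylene response sensor 1, 2.73 and 2.48 at 2175 bp).

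Genes of the fruit's texture, colour and sweetness had distal upstream sites at shares that lay near the background or had wide intervals. Pectin enzymes had 5 (0.363% against 0.364%), with 0.446% against 0.391% in replicate 1, 0.476% against 0.350% in replicate 2 and 0.139% against 0.332% at or above the median fold. They were led by the probable polygalacturonase FvH4_2g29270 (3.38 and 2.93 at 2863 bp). All 5 were between 2 and 5 kb from the gene start. Expansins and enzymes of cellulose and xyloglucan had 10 (0.726% against 0.5%), all in the nearest bin as well. Their strongest were FvH4_4g22090 (a xyloglucan endotransglucosylase/hydrolase gene, 4.19 and 3.56 at 2904 bp) and FvH4_3g36410 (expansin-A6, a loosener of cell walls, 3.44 and 4.06 at 3721 bp). In the single lists the share of this group was 0.496% against 0.532% in replicate 1 and 0.519% against 0.502% in replicate 2, so the higher share of the merged list was not seen there.

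Flavonoid and phenylpropanoid genes had 9 peaks (0.654% against 0.462%), again all from 2 to 5 kb. FvH4_6g47620 and FvH4_6g39311, both described as anthocyanidin 3-O-glucosyltransferase 2-like, had 3.70 and 4.26 at 2773 bp and 3.44 and 3.74 at 3805 bp. Enzymes of that name attach glucose to the red anthocyanidins. FvH4_5g15140, cytochrome P450 98A2, which acts in the phenylpropanoid pathway, had 3.90 and 3.33 at 2161 bp. Sugar genes had 6 peaks (0.436% against 0.546%), and the strongest stood 21467 bp upstream of FvH4_5g25950 (monosaccharide-sensing protein 2, a sugar transporter of the vacuole), with 3.90 and 3.87. A pair of probable sucrose-phosphate synthases, which make sucrose phosphate, followed: FvH4_6g47971 with 3.53 and 3.22 at 2261 bp, and FvH4_2g00340 with 2.84 and 3.46 at 4409 bp.

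**Figure D5:**
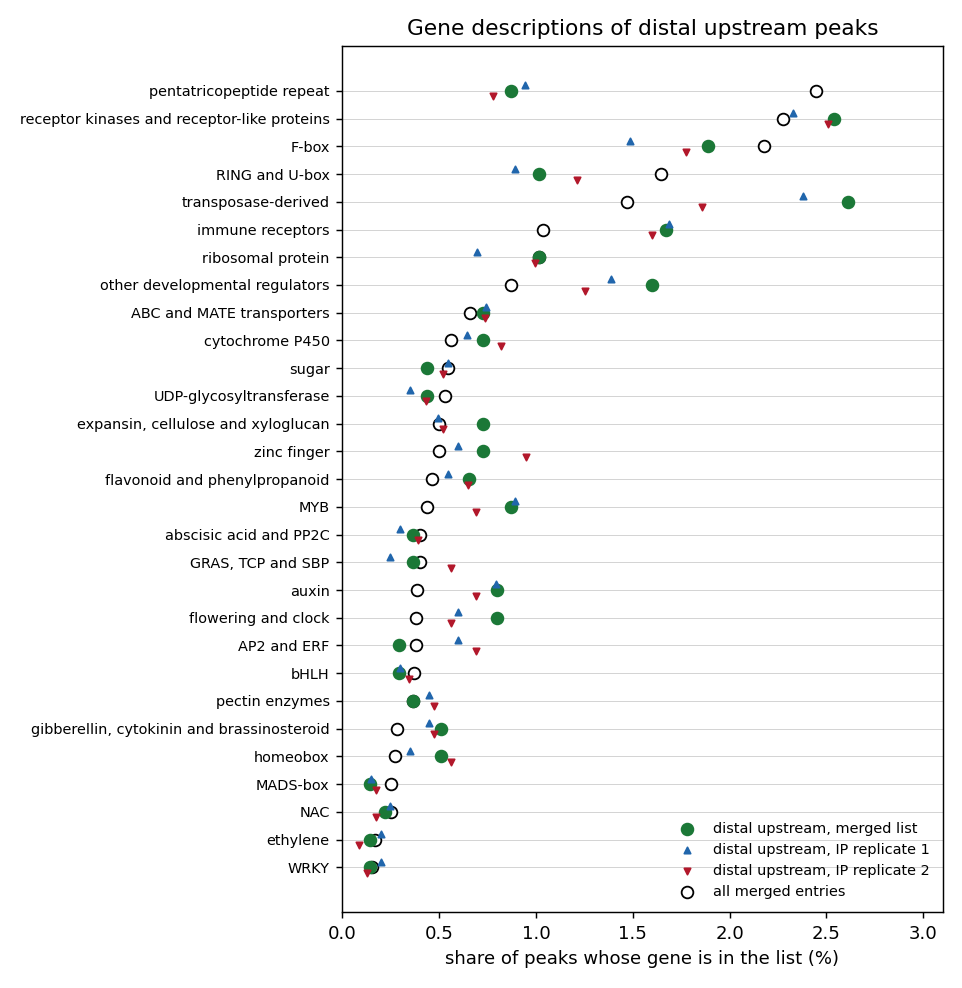
Share of peaks (horizontal axis, %) whose gene description falls in each of 29 function lists (rows), for distal upstream peaks of the merged list and of each IP replicate list, and for all merged entries on the chromosomes. The transposase-derived list, which also holds gag-pol genes, lies at 2.61% against 1.47%. Pentatricopeptide repeat genes lie at 0.871% against 2.45%, and most other lists have few peaks and lie close together.

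The widest gap below the background was at pentatricopeptide repeat genes, which encode RNA-binding proteins of chloroplasts and mitochondria. They had 12 distal upstream peaks (0.871%, 95% Wilson interval 0.499 to 1.52) against 2.45% of all entries. The shares were 0.942% against 2.29% in replicate 1 and 0.778% against 2.19% in replicate 2. Distal downstream and promoter entries were also low for this family, at 1.19% and 1.36%. The strongest distal upstream sites were at FvH4_3g35760 (4.07 and 3.98 at 7831 bp), FvH4_4g16590 (4.11 and 3.65 at 5094 bp) and FvH4_6g08090 (3.41 and 4.06 at 2211 bp). Genes for RING and U-box ubiquitin ligases had 14 peaks (1.02% against 1.65%), with 0.892% against 1.53% in replicate 1 and 1.21% against 1.58% in replicate 2. They were led by FvH4_5g30950, a RING domain gene (4.37 and 4.13 at 7314 bp), and FvH4_1g29130 (U-box domain-containing protein 2, 4.01 and 4.33 at 6717 bp). F-box genes had 26 (1.89% against 2.18%), the strongest at FvH4_3g09640, a putative F-box/LRR-repeat gene (4.66 and 4.23 at 3335 bp).

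Transposase-derived genes stood on the other side, in a list that also holds gag-pol genes. The list had 36 distal upstream peaks at 25 genes (2.61%, 95% Wilson interval 1.89 to 3.60) against 1.47% of all entries. The shares were 2.38% against 1.48% in replicate 1, 1.86% against 1.34% in replicate 2, and 2.10% against 1.35% with each gene counted once. Distal downstream entries had 2.32% and promoter entries 1.58%. Of the 36, 21 were at BED domain genes such as RICESLEEPER, 8 at FAR1-related genes, 4 at MYM-type genes and 3 at genes described as gag-pol polyproteins. Chromosome 4 held 17 of them, and 6 belonged to FvH4_4g21073. The strongest were at FvH4_4g06832 (FAR1-RELATED SEQUENCE 5-like, 3.49 and 4.79 at 8391 bp), FvH4_3g31110 (a MYM-type gene, 4.41 and 3.26 at 8600 bp) and FvH4_4g10393 (RICESLEEPER 2-like, 3.20 and 4.39 at 6411 bp). The replicates disagreed on all 3 by more than most peaks. Repeated copies of such genes can share reads, and the labels and file headers do not say how such reads were placed. Any bearing of this on the peaks, which were annotated as intergenic, was not tested.

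Immune receptor genes had 23 peaks (1.67%, 95% Wilson interval 1.12 to 2.49) against 1.04% of all entries, with 1.69% against 1.14% in replicate 1 and 1.60% against 1.11% in replicate 2. Among entries at or above the list's median fold the direction turned, with 0.695% against 0.921%. Their strongest sites were at the disease resistance genes FvH4_1g07760 (4.24 and 3.81 at 2159 bp), FvH4_5g11130 (4.30 and 3.65 at 2792 bp) and FvH4_2g05590 (4.13 and 3.21 at 2341 bp), all higher in replicate 1. Receptor kinases and receptor-like proteins had 35 (2.54% against 2.27%), and were below the background in replicate 1 (2.33% against 2.39%). They were led by FvH4_3g13600 (FLS2, the receptor of bacterial flagellin in Arabidopsis, 4.24 and 3.90 at 8362 bp) and FvH4_3g20780 (THESEUS 1, a sensor of the cell wall, 4.58 and 3.44 at 12562 bp).

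The remaining families were near the background in the merged list. Cytochrome P450 genes had 10 peaks (0.726% against 0.561%, and 1.11% against 0.544% at or above the median fold), the strongest at FvH4_7g05960 (77A3-like, 4.15 and 4.07 at 8819 bp). ABC and MATE transporters had 10 (0.726% against 0.66%), none of which reached the median fold. UDP-glycosyltransferases had 6 (0.436% against 0.531%), and 0.556% against 0.529% at or above the median fold. Ribosomal protein genes had 14 (1.02% against 1.02%), with 0.694% against 0.918% in replicate 1 and 0.994% against 1.01% in replicate 2, among them FvH4_3g08970 (30S ribosomal protein S5 of the chloroplast, 3.03 and 4.20 at 2775 bp). Of the 30 lists, 16 had a higher share among distal upstream peaks than among all entries. In all 7 settings, 16 of the 30 kept the same side of the background. The 7 include the main setting and share peaks, so they are not independent checks. With 2 replicate lists and no groups, none of the differences in share was tested, and all lists together describe the genes next to the peaks.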

How the data were processed

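DAP-seq peak lists of 2 IP replicates and their merged list were analysed. The 1 input library had no list among them. The submitters' processing notes name BWA for alignment and MACS2 for peak calling, and versions, settings and build are not given in them. The deposited fold enrichment is the authors' ratio of IP signal to background per peak, and the merged list holds its mean over replicates, per the file headers. The deposited −log10 p-values and −log10 q-values are the peak caller's, per the file headers. The lowest −log10 q was 3.03 and the lowest fold 2.00079 in the replicate lists. The authors' annotation gave each peak a class, gene, distance and description. Of the columns with values, 1 (a mean of p-values) was not used.

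Tests on the lists showed that all 13283 merged intervals are the union of the replicate peaks they cite. Samples were grouped by their titles, and peaks were selected by class, sign of distance and chromosome. Overlap meant at least 1 bp, and the code gave the same counts as bedtools 2.31.1 (13493 and 13438). Wilson intervals at 95% cover counting error only. The computations used Python 3.11.15, pandas 2.3.3, numpy 2.4.6, scipy 1.17.1 and matplotlib 3.10.9, and the overlap code was tested on simulated lists. With no second condition no test was run.

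The peaks and the 30 function lists were chosen with earlier results of these data known, and list words were corrected after descriptions were seen, so the shares are descriptions. Genes were named by rule: the 10 highest mean folds, the 5 highest per bin, the 5 farthest, the genes with most peaks, up to 3 of highest fold per function list (10 for MADS-box genes), and 2 peaks on either side of the promoter edge. Not all that the rule picked are printed. Outside this rule are the genes named after their values were seen. So are those in the closing observations on single lists, contigs and untraced peak names. Alternatives were a higher fold or q-value limit, single replicate lists, contigs, 1 entry per gene, other bin edges, promoter windows and overlap rules. After the data were seen, leaving out an entry with untraced peak names and counting each gene once were added.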

Additional observations from a re-analysis of the deposited data

How the results depend on the processing

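No paired analysis was possible because there is 1 group of IP replicates, with no second group to pair it with. Of 78 alternative values, 49 moved by more than the spread between the replicate lists, none of them with a test. Keeping entries with a mean fold at or above the list's median left 719 peaks, with bin shares of 63.3% (2 to 5 kb) and 28.2% (5 to 10 kb) and median folds of 3.49 overall and 3.46, 3.56 and 3.58 by bin. The regulator share was then 5.70% and the share of genes with a promoter entry 6.06%. A mean −log10 q of at least 10 left 771 peaks, with bin shares of 63.3%, 28.7% and 8.04%, median folds of 3.46 overall and 3.44, 3.51 and 3.57 by bin, and shares of 5.58% and 7.23%. Both limits raise the folds and remove promoter entries by construction. With each replicate left out in turn, the count was 2017 to 2313. The bin shares were 64.7% to 65.1%, 26.3% to 26.4% and 8.53% to 8.91%. The median folds were 3.06 to 3.08 overall and 3.05 to 3.08, 3.09 to 3.101 and 3.04 to 3.08 by bin. The promoter share was 17.1% to 18.0095%, and the cause of the higher share was not tested. Contigs gave bin shares of 64.6%, 26.4% and 8.99% and a median fold of 3.12 over 10 kb. With 1 entry per gene, the nearest, they were 71.6%, 23.1% and 5.29%, and the 5 to 10 kb median 3.26. Bin edges at 4 and 8 kb gave 51.6%, 32.5% and 15.8%. A promoter of 1 kb gave 6.55%. Replicate support fell to 91.6% with 50% of both peaks and to 87.4% with midpoints within 100 bp. Of the 30 function lists, 16 stayed on the same side of the share of all entries in all 7 settings. The 7 include the main setting and share peaks, so they are not independent. Those 16 lists include MYB, homeobox, flowering, auxin, pentatricopeptide repeat, transposase-derived and undescribed genes. The read depth is unknown, so how far it limits these lists was not tested.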

Other observations

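Many distal upstream peaks were listed in 1 replicate only, at a rate close to that of all peaks. In replicate 1, 69.0% of them overlapped a replicate 2 peak, against 70.4% of all peaks on the chromosomes. In replicate 2 the shares were 60.0% and 61.9%. The replicate 1 list held 625 at 585 genes that no replicate 2 peak touched, with a median fold of 2.93, and the replicate 2 list held 926 at 860 genes, with 2.90. Of these, 26 (4.16%) and 31 (3.35%) reached a fold of at least 4, against 6.74% and 5.95% of all peaks in those lists. That background includes shared peaks, which were stronger in every class compared. Unshared peaks of all classes had median folds of 2.90 in replicate 1 and 2.85 in replicate 2. The distal upstream peaks of 1 replicate only brought in 299 and 478 genes that had no entry of any class in the merged list. No like count is given for peaks of all classes. Further MADS-box genes stood among those with such distal upstream peaks. FvH4_5g34740 (AGL61) had a fold of 3.35 in replicate 2 at 3009 bp, and FvH4_1g19710 (JOINTLESS, named for the tomato gene of the fruit stalk's abscission zone) had 3.13 in replicate 2 at 3225 bp. FvH4_2g02270 (AGL62), which has a merged entry, had a second site in replicate 1, with 3.15 at 4403 bp.

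Genes of ripening pathways had such sites too. Those printed are examples from longer lists, with no background share, and are not always the strongest. FvH4_1g08010 (protein phosphatase 2C 16), for instance, had 4.03 in replicate 2 at 2590 bp. FvH4_2g32040, the abscisic acid receptor PYL2, had 3.52 in replicate 1 at 2597 bp, and FvH4_4g05900 (NCED6, of abscisic acid synthesis) had 3.00118 in replicate 2 at 7671 bp. FvH4_7g23220, a polygalacturonase, had 2.98 in replicate 2 at 2214 bp. The anthocyanidin glucosyltransferase gene FvH4_6g39311 had 4.72 in replicate 2 at 10587 bp, a stronger value than its merged site had in either replicate. Outside the ripening pathways, the homeobox gene FvH4_6g43510 (HDG2) had 3.97 in replicate 2 at 3516 bp. No replicate check exists for these values.

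Another 24 distal upstream entries lay on contigs outside the chromosomes. The strongest stood 12943 bp upstream of FvH4_c17g00081, described as floral homeotic protein APETALA 2-like, with 5.23 in replicate 1 and 5.05 in replicate 2. Entries at FvH4_c1g00130, described as NADH dehydrogenase subunit 7, had folds of only 2.40 to 3.36 in replicate 1 and 2.48 to 3.50 in replicate 2. Their mean −log10 p reached 200.3, against a median of 12.8 over distal upstream peaks on the chromosomes. Of the 13283 merged entries, 4 cite replicate peak names that the replicate lists do not hold, and they break the falling order of mean fold that the other 13279 keep. They are assigned to FvH4_3g16730 (NCED3-like, 2 entries), FvH4_2g04750 (GH3.1) and FvH4_7g01160 (polyketide synthase 1).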
